A study of Mus musculus with 36 samples.

Results

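The comparison described here is 5-methylcytosine (5mC) in articular cartilage at 12 weeks after destabilization of the medial meniscus (DMM), a knee surgery that loosens the meniscus and leads to post-traumatic osteoarthritis. It set 3 oxidative bisulfite (oxBS) libraries from operated right knees (DMM) against 3 from the non-operated left knees (control), which the labels identify by limb. The members were the autosomal CpG cytosines read at least 10 times in all 6 libraries: 1252526 of the 1924494 autosomal cytosines listed in at least 1 of them, on 1063383 distinct CpG dinucleotides. The series as a whole holds 36 samples. All mice were male C57BL/6J and 12 weeks old at surgery. Each library came from tibial plateau and femoral condyle cartilage of 3 knees pooled, and the control limb was the contralateral knee of an operated animal, not of a sham-operated or untouched one. The labels do not say which control library shares animals with which DMM library.

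Methylation of the cytosine in CpG is a stable mark that is dense on silent promoters and across gene bodies, is nearly absent from active CpG-rich promoters, and is intermediate at many enhancers, where it differs between cell types. DNMT enzymes place and copy it, and TET enzymes oxidise it to 5-hydroxymethylcytosine (5hmC). Ordinary bisulfite sequencing (BS) cannot separate the pair of marks, whereas the oxidation step in oxBS leaves 5mC alone to be read as C. DNA was first cut with MspI at CCGG, so that CpG-rich fragments were sampled and most of the genome was not.

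Median coverage per cytosine lay between 29 and 73 reads. DMM replicate 1 was the deepest library and control replicate 2 the shallowest. Unconverted cytosine on the mitochondrial genome was 0.284 to 0.351% in the 6 libraries, so the background of the conversion was below every difference given below for partly methylated cytosines. The titles of control replicate 2 and DMM replicate 1 are written in another form than those of the other 4 libraries. What that form marks is not stated, so results are also given without this pair. Within the other 4 libraries the titles also differ slightly in form between control and DMM. There the form cannot be told apart from the limb, and leaving out the pair does not remove it. Since cartilage was sampled in bulk, a different mix of cells and a different methylation within 1 cell type cannot be told apart in any of the values below.

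Some of the cytosines at which the limbs differed lay close together in short stretches, and the sequences below show examples of these. They are the GRCm38 reference (RefSeq), forward strand, of differentially methylated regions (DMRs, defined further on) at matrix genes (Col6a3, Fmod, Timp2, Mmp14), at genes of signalling pathways of cartilage (Smad3, Gdf5, Wnt4, Fgf18) and at genes with higher 5mC in DMM (Dlx6, Dok2), each with 10 bases on either side. Capitals mark the CpG dinucleotides that were measured and, in Fgf18, a match to TGANTCA.
Col6a3, chr1:90833344-90833474: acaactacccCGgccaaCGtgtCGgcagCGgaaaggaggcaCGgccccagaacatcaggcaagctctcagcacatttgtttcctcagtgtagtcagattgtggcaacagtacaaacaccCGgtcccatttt
Fmod, chr1:134038800-134038895: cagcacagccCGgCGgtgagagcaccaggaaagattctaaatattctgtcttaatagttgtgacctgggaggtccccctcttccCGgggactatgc
Timp2, chr11:118330557-118330691: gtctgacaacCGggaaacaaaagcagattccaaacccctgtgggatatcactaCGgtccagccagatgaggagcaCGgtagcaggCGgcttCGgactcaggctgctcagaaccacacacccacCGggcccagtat
Mmp14, chr14:54443843-54443890: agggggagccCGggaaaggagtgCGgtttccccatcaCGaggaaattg
Smad3, chr9:63718819-63718905: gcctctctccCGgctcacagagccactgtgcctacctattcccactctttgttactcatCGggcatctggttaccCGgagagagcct
Gdf5, chr2:155942039-155942238: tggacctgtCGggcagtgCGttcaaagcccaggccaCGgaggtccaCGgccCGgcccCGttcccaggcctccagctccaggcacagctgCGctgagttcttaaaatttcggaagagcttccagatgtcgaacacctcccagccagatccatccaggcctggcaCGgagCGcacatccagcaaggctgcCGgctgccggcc
Wnt4, chr4:137286215-137286248: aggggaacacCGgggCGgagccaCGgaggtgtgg
Fgf18, chr11:33098509-33098662: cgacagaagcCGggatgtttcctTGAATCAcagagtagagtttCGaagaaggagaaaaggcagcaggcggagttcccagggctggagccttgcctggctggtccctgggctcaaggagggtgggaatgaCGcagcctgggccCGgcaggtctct
Dlx6, chr6:6864691-6864860: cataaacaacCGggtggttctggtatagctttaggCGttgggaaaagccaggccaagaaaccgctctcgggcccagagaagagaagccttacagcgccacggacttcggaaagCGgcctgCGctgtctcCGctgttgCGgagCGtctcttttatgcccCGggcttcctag
Dok2, chr14:70775465-70775496: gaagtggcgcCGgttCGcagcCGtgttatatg

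Over all members, mean 5mC was 29.9, 29.7 and 30.3% in control replicates 1, 2 and 3 and 28.7, 29.4 and 28.9% in DMM replicates 1, 2 and 3. Every DMM library lay below every control library. The means were 29.9% ± 0.307 (SD, n = 3) and 29.0% ± 0.373 (SD, n = 3), a difference of -0.927 points. A two-sided exact permutation test gave p = 0.1, which is the smallest value this test can give for 3 against 3 libraries, so it cannot pass 0.05 here.

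The difference was uneven across the genome. Promoter cytosines (from 1000 bp before to 500 bp after a RefSeq start, 44.2% of members) were nearly unmethylated in both limbs, at 2.73% ± 0.0468 (SD, n = 3) in control and 2.56% ± 0.0595 (SD, n = 3) in DMM. Exons differed by -1.12 points, introns by -1.82 points and intergenic cytosines by -1.45 points, and in each of these classes all DMM libraries were below all control libraries (exact permutation p = 0.1). Cytosines in repeats averaged 58.7% in control and 58.4% in DMM, and there the libraries overlapped (exact permutation p = 0.5). The gap was thus narrowest in promoters and in repeats. With distance from the start, the difference widened from -0.137 points within 500 bp downstream to -2.19 points at 50000 to 100000 bp downstream. With CpG density it narrowed, from -2.07 points where 200 bp held 1 to 4 CpGs to -0.085 points where they held 20 or more. These classes differ in level, and a class near 0% can fall little. Control averaged 2.21% within 500 bp downstream and 65.5% at 50000 to 100000 bp. It averaged 66.6% at 1 to 4 CpGs and 1.45% at 20 or more.

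The difference also varied with the level of 5mC itself. Cytosines under 20% over the 6 libraries differed by -0.148 points and the 260684 partly methylated cytosines between 20 and 80% by -3.97 points. Those at 80% or more differed by -0.0628 points with overlapping libraries (exact permutation p = 0.6). Their sign turned when some single libraries were left out. In the partly methylated cytosines, control libraries read 58.8, 57.7 and 59.9% and DMM libraries 53.7, 56.1 and 54.6%. Again no DMM library reached any control library. In steps of 10 points the difference was largest at a level of 30 to 40%, where it came to -7.36 points. Once only partly methylated cytosines were compared, promoters differed by -3.95 points, exons by -3.48, introns by -4.45 and intergenic cytosines by -3.68, a narrower range than over all levels. Repeats still differed less than other sequence, by -2.21 against -4.12 points. The gradients with density and distance were also narrower there. At 1 to 4, 5 to 9, 10 to 19 and 20 or more CpGs in 200 bp the differences were -3.80, -4.33, -3.37 and -2.53 points. Within 500 bp downstream of a start the difference was -3.65 points, and at 50000 to 100000 bp it was -4.71 points. On each of the 19 autosomes taken alone, all DMM libraries lay below all control libraries, with partly methylated cytosines lower by -3.49 points (chromosome 7) to -4.58 points (chromosome 10). The difference over all members was -0.958 points between the pair of libraries with the other title form and -0.911 points between the remaining 4.

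**Figure D1:**
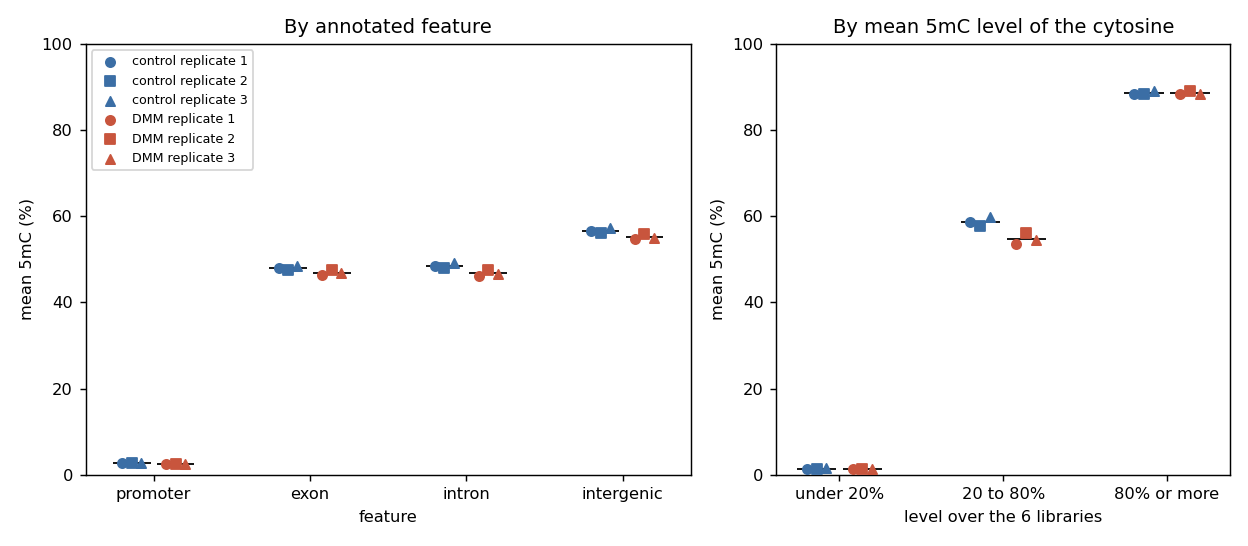
Mean 5mC (%) of each of the 6 libraries by annotated feature (left) and by the mean 5mC level of the cytosine (right). Points are libraries, horizontal lines are group means, and the wider gap stands in the class of 20 to 80%, with control at 57.7 to 59.9% and DMM at 53.7 to 56.1%.

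**Figure D2:**
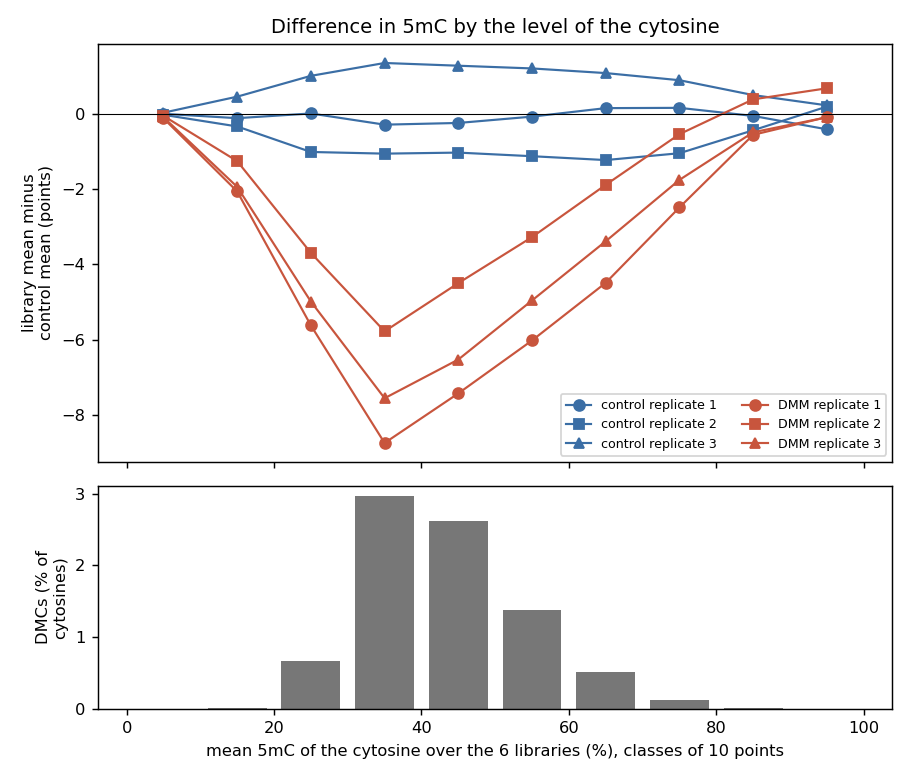
Upper panel, mean of each library minus the mean of the 3 control libraries (points of 5mC) in classes of 10 points of 5mC level. Lower panel, differentially methylated cytosines as a percentage of the cytosines in the class; the widest gap and the highest share, 2.96%, are both at 30 to 40%.

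At single cytosines, a logistic model of the pooled reads with a Benjamini-Hochberg q under 0.05 and a difference of at least 25 points marked 2867 differentially methylated cytosines (DMCs), or 0.229% of those tested. Of these, 2524 were lower in DMM (0.202% of cytosines tested) and 343 higher (0.0274%). The 3 DMM percentages did not overlap the 3 control percentages at 2191 of the lower and 322 of the higher DMCs. Over all cytosines 5.61% were lower and 2.54% higher without overlap, and as the DMC rule used this contrast, nothing is read from the count. Introns held 1255 DMCs (0.45% of their cytosines), intergenic sequence 997 (0.382%), exons 469 (0.294%) and promoters 146 (0.0264%). Partly methylated cytosines held 2855 of the 2867, and among them promoters had DMCs at 1.11%, close to the 1.2% of introns. The test counts reads, not libraries, and on simulated reads that varied between libraries of a limb the same rule also called cytosines that had not been changed. That simulated variation was a fixed setting and was not fitted to these libraries, so it does not give the error rate here. With the spread between libraries of a limb in the model (overdispersion) 0 cytosines were called, with 24947 of all 1252526 at an unadjusted p under 0.05, and limma's moderated test called 1158. That fit with overdispersion also missed every change put into simulated data of this design, so its 0 says nothing about these cytosines. The count was 1640 without DMM replicate 1 and 5205 without control replicate 2, and 325 of the DMCs were called in all 6 fits that each left out 1 library.

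DMRs were stretches of at least 3 tested cytosines no more than 100 bp apart, of which 1 or more differed by 25 points with q under 0.01 and over which the differences of the single cytosines, from pooled reads, averaged 20 points or more. The percentages printed for a DMR are instead those of each library over the whole region, so the gap between their means can be under 20 points, and it ran from -37.6 to -10.1 points in the lower and from 17.7 to 29.7 points in the higher DMRs. The DMRs held 605 of the 2867 DMCs (21.1%). Of 100528 such stretches (candidate regions), 322 were DMRs (0.32%), 287 lower in DMM (0.285%) and 35 higher (0.0348%). Read per library, the 6 values did not overlap between limbs in 279 of the 287 and in 35 of the 35. Among all candidate regions, whatever their difference, 14.8% were free of overlap and lower in DMM and 5.16% were free of overlap and higher. The DMR rule used this same contrast, so the non-overlap describes the DMRs and does not test them. The rule's edge was close: the 5 DMRs nearest to it had absolute averages over cytosines of 20.002 to 20.053 points, and the 5 nearest regions outside had 19.940 to 19.988. The count was 98 without DMM replicate 1, 181 without control replicate 3, and 89 without both control replicate 2 and DMM replicate 1. It also went the other way, and the highest count without 1 library was above 322. Within this pair and within the other 4 libraries, the median differences were -22.2 and -22.1 points for the lower and 21.2 and 22.3 points for the higher DMRs. All 6 libraries had a part in choosing the DMRs, so these medians are a description and do not test the title form.

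In the lower DMRs, the median region read 49.2, 48.4 and 53.5% in control replicates 1, 2 and 3 and 25.1, 29.3 and 27.9% in DMM replicates 1, 2 and 3. In the higher DMRs it read 36.4, 40.6 and 35.4% in control and 61.5, 59.8 and 57.1% in DMM. These medians were intermediate, as a rule that asks for a wide difference favours. When libraries were the unit, limma's moderated test on the log2 ratio of methylated to unmethylated reads called 0 of the 100528 regions (0.0%) at an adjusted p under 0.05. The lowest adjusted p was 0.0802. Without adjustment, 11.9% of candidate regions had a p under 0.05 and were lower in DMM, and 3.05% were higher, a split that has the same direction as the DMRs.

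**Figure D3:**
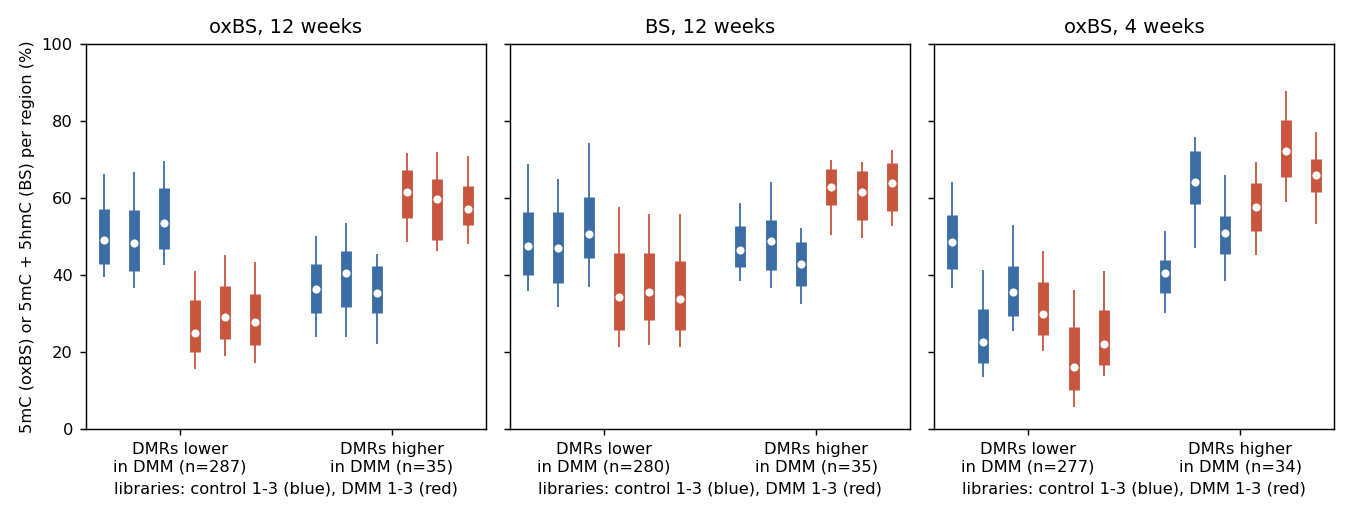
Percentage of C per DMR in each library (control blue, DMM red), with white points for medians, thick bars for the 25th to 75th and thin lines for the 10th to 90th percentiles, in oxBS at 12 weeks, BS at 12 weeks and oxBS at 4 weeks. At 12 weeks the medians of the lower DMRs are 48.4 to 53.5% in control and 25.1 to 29.3% in DMM; at 4 weeks control replicate 2, at 22.6%, lies among the DMM libraries.

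The lower DMRs had a median length of 68 bp and the higher ones of 94 bp, each with a median of 4 cytosines, and lower DMRs lay a median of 25504 bp from the nearest start. Higher DMRs lay closer, at 11176 bp, and partly methylated candidate regions at 20516 bp. By feature, 134 of the lower DMRs were intronic, 103 intergenic, 40 exonic and 10 in promoters, and 46.7% of lower DMRs against 40.1% of partly methylated candidate regions were intronic. Repeats made up 3.48% of the lower DMRs and 7.42% of those candidate regions. A CCGG, the site at which the DNA was cut, lay in the 200 bp around the middle of all 322 DMRs. The same window held one in nearly all candidate regions, 100469 of 100528.

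Known binding motifs were counted, on both strands, in the 200 bp around each region. TGANTCA, the core motif of the AP-1 factors FOS and JUN, was found in 39 of the 287 lower DMRs (13.6%), in 3 of the 35 higher DMRs (8.57%), in 5.58% of partly methylated candidate regions and in 4.02% of all candidate regions. GGAATG, bound by TEAD factors, was in 15.7% of lower DMRs against 11.9% of partly methylated regions, and TGTGGT, bound by RUNX factors, in 10.5% against 13.6%. In the higher DMRs the RUNX letters were in 22.9% and ACAATG, a motif of SOX factors, in 17.1%, where 4.88% of lower DMRs and 7.26% of partly methylated regions held the latter. The TEAD letters were in 14.3% of higher DMRs. ACCGGAAG, an ETS motif, was in 1.74% of lower and 8.57% of higher DMRs against 2.7%, and TTGCNNAA, a C/EBP motif, in 4.53% and 8.57% against 6.31%. With 35 higher DMRs, their shares rest on 3 to 8 regions each. These are letter matches in a window and were not tested. The 6 motifs do not contain each other, and of the regions whose sequence is printed above only that of Fgf18 holds TGANTCA.

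The lower DMR with the widest gap between library means was in intron 4 of Fndc3b (chr3:27582980-27583006), a fibronectin type III domain gene. It read 52.3, 74.4 and 74.5% in control and 23.9, 30.6 and 33.9% in DMM. No library of one limb reached the other, although control replicate 1 stood well below its group. Next came a region upstream of the start of Slc44a3, a choline transporter-like gene, at 36.5, 56.8 and 65.9% in control and 24.4, 17.5 and 7.95% in DMM. Both rested on few reads, 39 to 109 per library in Fndc3b and 40 to 96 in Slc44a3. A region in intron 1 of Cuedc1 (chr11:88112143-88112184) was tighter, with 67.5, 71.8 and 71.5% in control and 29.2, 37.0 and 41.2% in DMM, and all 4 of its cytosines were DMCs. One in intron 6 of Auh, a mitochondrial enoyl-CoA hydratase that also binds RNA, read 57.9, 61.3 and 63.3% in control and 30.04, 27.1 and 25.4% in DMM. The remaining regions among the 12 widest lower DMRs with at least 3 dinucleotides lay at Gm19510, 1700001J04Rik, Krtap7-1, Lmod1, Creb5, Tle3, 9430014N10Rik and Gm8883, with differences of -35.7 to -30.9 points. Lmod1, an actin-nucleating gene of smooth muscle, was one of the 11 DMRs that overlap a UTR.

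Each DMR was assigned to the gene that held it or else to the nearest start, and 303 of 19372 genes with a candidate region had one (1.56%). Among genes with a candidate region, DMRs were found at 3 of 30 collagens outside the main cartilage types, 1 of 28 cartilage matrix genes, 3 of 45 proteases and inhibitors, 3 of 52 TGF-beta and BMP genes, 3 of 67 WNT genes, 4 of 33 hedgehog and FGF genes and 4 of 33 chondrocyte transcription factors. They were at 2 of 46 inflammatory, 2 of 46 integrin and actin, 1 of 20 hypertrophy and ossification, 1 of 17 DNA methylation and 0 of 39 Hox genes. With 4 or fewer in each list these counts were not tested, and the genes below are described one by one. Col6a3 encodes a chain of type VI collagen, the pericellular collagen that surrounds chondrocytes. Its DMR in intron 1 (chr1:90833354-90833464) read 60.8, 54.3 and 63.4% in control and 30.9, 34.9 and 34.4% in DMM. The limbs did not overlap at any of its 6 cytosines, and the nearest pair was the fourth, at 62.1% in control replicate 2 and 53.3% in DMM replicate 2. The DMR rule used this same contrast, and neighbouring cytosines are not separate observations. The non-overlap thus describes the region and does not test it. In limma's test the log2 odds were lower by -1.55 ± 0.22 (SE), with an adjusted p of 0.0802. Col5a1, whose product starts collagen fibrils, had a DMR in intron 9 (chr2:27953911-27954012) at 40.9, 41.0 and 48.9% in control and 17.6, 16.7 and 24.7% in DMM. Col27a1, a fibrillar collagen of growing cartilage, had one in exon 3 (chr4:63225668-63225785) at 54.2, 52.0 and 52.4% in control and 31.0, 43.8 and 28.8% in DMM, where DMM replicate 2 stood nearest to control. Fmod encodes fibromodulin, a small proteoglycan on collagen fibrils, and its DMR in intron 1 (chr1:134038810-134038885) was 1593 bp from the start. It read 51.1, 40.5 and 52.0% in control and 28.8, 28.6 and 25% in DMM.

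Among matrix proteases and their inhibitors, Timp2, an inhibitor of matrix metalloproteinases, read 58.4, 56.9 and 55.3% in control and 33.6, 43.5 and 36.0% in DMM in intron 1 (chr11:118330567-118330681). Its control libraries lay close together, at 56.9% ± 1.51 (SD, n = 3), and DMM replicate 2 was the nearest to them. Mmp14, the membrane-anchored collagenase that activates other proteases, had a DMR 12268 bp from its start (chr14:54443853-54443880), with 45.1, 39.3 and 56.5% in control and 22.5, 18.2 and 24.2% in DMM. A region upstream of Adam19 (-28369 bp from the start), a disintegrin metalloproteinase, had the widest control spread of this group, 41.2% ± 10.99 (SD, n = 3) against 23.2% ± 4.08 (SD, n = 3).

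TGF-beta and BMP signals act in cartilage through ligands, receptors and SMAD proteins, and the 3 DMRs of this list were at a ligand, a receptor and a SMAD gene. Gdf5, the BMP-family ligand of joint formation, had the region with the most cytosines among these genes, 11, in exon 2 (chr2:155942049-155942228). It read 45.8, 38.4 and 47.2% in control and 19.8, 25.4 and 27.6% in DMM. Acvr1, a type I BMP receptor, read 74.9, 64.3 and 64.0% in control and 51.1, 55.3 and 40.1% in DMM in intron 1. Smad3, which carries the TGF-beta signal to the nucleus, read 49.2, 56.1 and 50% in control and 24.6, 30.4 and 22.1% in DMM in intron 1 (chr9:63718829-63718895), 39132 bp from the start. Of the 3, Smad3 had the clearest gap and Acvr1 the narrowest. In the WNT pathway, DMRs lay at the ligand genes Wnt4 and Wnt7b and at the receptor gene Fzd9. Wnt4 (intron 1, chr4:137286225-137286238) read 67.9, 69.8 and 68.4% in control and 35.6, 53.2 and 45.1% in DMM. In the hedgehog and FGF pathways they lay at Gli2, the transcription factor at the end of the hedgehog cascade, at Fgf18, a growth factor that favours matrix synthesis, at the receptor gene Fgfr4 and at Spred2, an inhibitor of the kinase cascade below FGF receptors. Fgf18 read 52.9, 46.9 and 65.1% in control and 37.8, 31.8 and 31.8% in DMM, 48815 bp from its start. Fgfr4 had the lowest levels, 25.9% ± 6.16 (SD, n = 3) in control and 7.53% ± 1.83 (SD, n = 3) in DMM.

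Regulators of transcription and of chromatin also had lower DMRs. In Runx1, a factor of early chondrocytes and of blood stem cells, intron 3 read 67.4, 65.6 and 69.2% in control and 48.2, 40.8 and 47.9% in DMM (chr16:92693004-92693126). Sox5, a partner of SOX9, read 50.3, 49.3 and 57.7% in control and 28.7, 42.7 and 29.2% in DMM in intron 4. At Creb5, a factor of superficial articular chondrocytes, control replicate 3 at 88.9% stood far above control replicates 1 and 2 at 50.8 and 42.2%, and DMM libraries read 36.2, 25.2 and 25.6%. The class IIa deacetylase gene Hdac5 differed by -23.5 points in intron 5 and -19.4 points in exon 18, and Dnmt1, which copies methylation after replication, by -25.5 points in intron 1. Tnfrsf11b, the gene of osteoprotegerin, differed by -27.0 points but DMM replicate 2, at 56.2%, was just below control replicate 1, at 59.0%. Traf2, an adaptor of TNF receptors, differed by -24.6 points, and Robo4, a guidance receptor of endothelium, by -19.7.

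**Figure D4:**
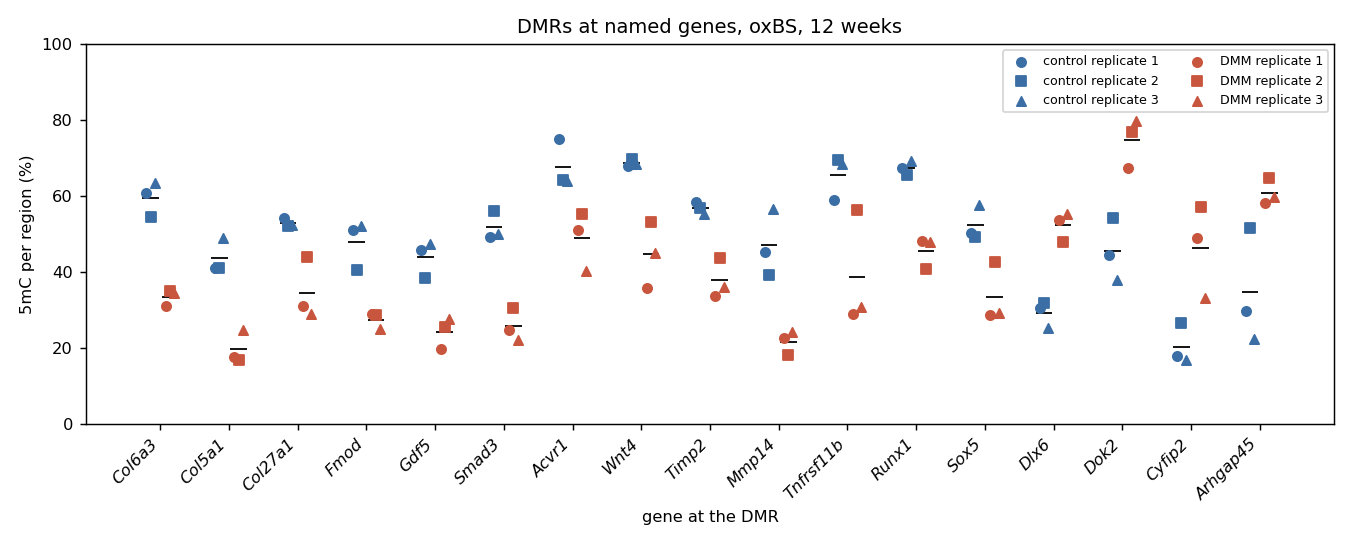
5mC (%) of 17 DMRs in each of the 6 libraries, named by gene, with horizontal lines for group means. In the 13 regions to the left, up to Sox5, DMM libraries sit below control libraries, and in Dlx6, Dok2, Cyfip2 and Arhgap45 they sit above.

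The 35 regions with higher 5mC in DMM are described by the 8 widest and by list genes. DMRs in either direction were at 0 of 22 leukocyte and marrow and 0 of 8 erythroid genes, lists too short to show a difference from the 1.56% of all genes. Dok2, an adaptor of hematopoietic cells, read 44.5, 54.2 and 37.7% in control and 67.3, 76.9 and 79.8% in DMM in exon 2 (chr14:70775475-70775486). Arhgap45, a GTPase-activating protein of hematopoietic cells, read 29.8, 51.6 and 22.4% in control and 58.0, 64.8 and 59.7% in DMM, with control replicate 2 nearest to DMM. Cyfip2, a part of the actin-regulating WAVE complex, read 17.8, 26.5 and 16.7% in control and 48.8, 57.1 and 33.0% in DMM. The homeobox gene Dlx6, which acts in limb and jaw skeleton, read 30.5, 31.9 and 25.1% in control and 53.7, 47.8 and 55.3% in DMM across 8 cytosines in intron 1 (chr6:6864701-6864850), where 2 antisense RNAs overlap it. Pxn, the focal adhesion protein paxillin, read 42.3, 41.7 and 36.6% in control and 63.8, 62.9 and 56.4% in DMM. The other regions among the 8 widest lay at 9030204H09Rik, Tubb2b, Gm14321, Crispld2 and Khdrbs1, with differences of 24.95 to 29.7 points.

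Summed over whole promoters, 0 of 13858 RefSeq genes (0.0%) passed limma's adjusted p of 0.05, with 7.71% lower and 1.72% higher at an unadjusted p under 0.05, and 11% lower and 4.29% higher without overlap. Summed over gene bodies, 38 of 13580 genes (0.28%) passed, 30 of them lower in DMM and 8 higher. Unadjusted, 13.5% were lower and 2.02% higher, and 18.4% and 3.17% did not overlap. All 38 had adjusted p-values just under the threshold, from 0.045 to 0.05, and each fit without 1 library called 0 genes, except that without DMM replicate 2, which called 5. With the replicate number as a block, without the variance trend in limma (a setting chosen after a run on simulated data) or without both control replicate 2 and DMM replicate 1, 0 genes were called, whereas 374 were with the title form as a term and 670 on the percent scale. Omd, osteomodulin of mineralised matrix, read 41.0, 44.4 and 54.3% in control and 22.0, 29.3 and 22.5% in DMM over 5 cytosines, and Cenpp, the gene that encloses it, read 65.9% ± 0.558 (SD, n = 3) and 54.3% ± 1.21 (SD, n = 3). Lgals3, the lectin galectin-3, read 51.4, 50.8 and 51.0% in control and 32.2, 35.3 and 35.7% in DMM, and Hoxb3, a positional homeobox gene, 30.1, 32.3 and 30.1% against 18.7, 20.1 and 21.0%. Others that were lower included Actn4, an actin crosslinker (-12.5 points), Vasn, a binder of TGF-beta (-15.4 points), and Ebi3, a subunit of interleukins (-19.3 points). Among the 8 higher genes were Dok2 again (46.5% ± 2.44 against 60.3% ± 1.13, SD, n = 3 each), Il12a, another interleukin subunit (36.7% ± 1.54 against 53.7% ± 2.78), and Dlx5, the neighbour of Dlx6. Dlx5 read 16.2, 16.5 and 16.6% in control and 28.7, 29.2 and 26.6% in DMM.

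Lists of genes by role were set beside all genes tested, of which 73.0% had a lower gene body mean in DMM, with a median difference of -1.09 points and 13.5% lower at an unadjusted p under 0.05. Collagens outside the main cartilage types were lower in 25 of 28 gene bodies, with a median of -3.57 points and 11 at an unadjusted p under 0.05, all 11 lower. Col5a2 (-11.02 points) and Col14a1 (-10.4 points) led them, and Col6a3, Col5a1 and Col27a1 had DMRs. Col4a1, Col5a1 and Col6a3 are also among the genes that the study named for functions shared by its 5mC and expression results. The lists were not matched to all genes by 5mC level, on which the difference depended (-3.97 points over partly methylated cytosines). Whether a list median differs from that of genes of like level was not tested. Matrix proteases and inhibitors were lower in 38 of 42 (median -2.18 points), with Adamts4, an aggrecan-cleaving protease, at 57.9% ± 1.63 against 46.4% ± 1.03 (SD, n = 3 each). TGF-beta and BMP genes were lower in 43 of 51 (-1.96 points), WNT genes in 52 of 63 (-1.33 points), hedgehog and FGF genes in 30 of 33 (-1.11 points) and genes of hypertrophy and ossification in 14 of 17 (-2.28 points). Cartilage matrix genes were lower in 16 of 23 (-1.36 points), chondrocyte transcription factors in 26 of 32 (-1.49 points), Hox genes in 21 of 35 (-0.126 points), inflammatory genes in 32 of 37 (-1.48 points), integrin and actin genes in 34 of 40 (-2.37 points) and genes that write or erase DNA methylation in 11 of 16 (-1.94 points). At an unadjusted p under 0.05, the gene bodies that were lower numbered 9 of 42 proteases and inhibitors, 13 of 51 TGF-beta and BMP, 13 of 63 WNT, 3 of 33 hedgehog and FGF, 5 of 17 hypertrophy and ossification, 3 of 23 cartilage matrix, 7 of 32 transcription factor, 7 of 35 Hox, 8 of 37 inflammatory, 5 of 40 integrin and actin and 2 of 16 DNA methylation genes. Those of the cartilage matrix, hedgehog and FGF, integrin and actin and DNA methylation lists were below the share of all genes. Higher at the same threshold were 5 of 35 Hox genes and 3 of 32 transcription factor genes, beside 2.02% of all gene bodies, and the other lists had 0 or 1. Of the 35 Hox genes, 8 were lower and 7 higher without overlap, beside 18.4% and 3.17% of all gene bodies, and the list was not tested. Called by limma after adjustment were Hoxb3, Dlx5 and Actn4 alone among all these. Some genes were named by the study itself, for 5mC or for functions shared by its 5mC and expression results. Of this set, the gene bodies measured were lower in 15 of 15 (-5.62 points). These genes were chosen at least partly on these samples and are not independent evidence of direction. In none of the 12 lists or that set was a promoter called.

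Markers of the cell types that cartilage tissue can hold differed in direction. Gene bodies of leukocyte and marrow genes were lower in only 6 of 16, with a median of 1.25 points, and their promoters in 0 of 5, beside 73.0% of all gene bodies and 58.8% of all promoters. At an unadjusted p under 0.05 in limma's test, 3 of the 16 gene bodies were lower and 3 higher. The shares of all gene bodies were 13.5% and 2.02%. Chondrocyte gene bodies were lower in 10 of 15, no more often than all genes, and their promoters in 9 of 10. Osteoblast and osteocyte gene bodies were lower in 7 of 8 (-5.13 points) and those of fibroblast and synovium in 11 of 13 (-3.04 points). Erythroid gene bodies were lower in 4 of 6, endothelial in 10 of 15, muscle in 11 of 15 and adipocyte in 4 of 8. Promoters were lower in 1 of 3 erythroid, 1 of 6 endothelial, 6 of 12 muscle and 3 of 4 adipocyte genes. They were lower in 6 of 8 fibroblast and 2 of 2 osteoblast genes, so few lower promoters were not particular to leukocyte genes. In the RNA libraries of 12 weeks, from other mice with the same surgery, all 25 leukocyte and 15 erythroid markers had log2 fold changes below 0 in DMM and all 19 chondrocyte markers had them above 0, as did 14 of 17 fibroblast and 9 of 12 osteoblast markers. Summed leukocyte markers were 16812 to 23877 CPM (counts scaled to a common library total) in control and 11947 to 18330 in DMM, and chondrocyte markers 16672 to 46873 and 33697 to 53224. Erythroid sums were 16254 to 23282 and 11909 to 20048, fibroblast sums 6350 to 12248 and 8759 to 12902, and osteoblast sums 9127 to 16761 and 14088 to 17507. Muscle markers were erratic, 142 to 20111 in control and 908 to 15758 in DMM, while adipocyte (217 to 421 and 228 to 340) and endothelial sums (291 to 412 and 280 to 374) were low throughout. No marker of these lists was at 0 in every library, and only Myod1 was at 0 in any. The chondrocyte markers Col2a1, Acan and Prg4 were present in each library, as were the leukocyte marker Ptprc and the hemoglobin gene Hbb-bs. The part of these cells in the 5mC differences was not tested.

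The same regions were then read in 6 oxBS libraries of 4 weeks, from other mice with the same surgery. Of the 277 lower DMRs with at least 3 cytosines there, 276 were also lower in DMM at 4 weeks, where 61.1% of all candidate regions and 71.2% of partly methylated ones were lower. Of the 34 higher DMRs, 34 were also higher, against 28.8% of partly methylated candidate regions. The median differences were -12.3 and 12.4 points, compared with -21.8 and 21.6 at 12 weeks in the same regions. Since the 12-week values chose these regions, their wider medians are favoured by the rule and do not show growth between weeks. Over partly methylated candidate regions the medians were -2.69 points at 4 weeks and -3.30 at 12 weeks. Libraries overlapped, though: only 10 lower and 1 higher DMR were free of overlap, where 6.25% and 2.5% of partly methylated candidate regions were. Control replicate 2 of 4 weeks stood apart, with a median of 22.6% in the lower DMRs against 48.7 and 35.5% in control replicates 1 and 3, and DMM libraries at 29.8, 16.1 and 22.0%. Without it, 211 lower and 26 higher DMRs were free of overlap, where 35.4% and 8.56% of partly methylated candidate regions were. Without DMM replicate 1 of 4 weeks 125 and 19 were, where 22.5% and 6.69% of those regions were. Without control replicate 1, 253 of the 277 were still lower and 31 of the 34 higher, and 61.3% of partly methylated candidate regions were lower. Over partly methylated cytosines, the 4-week difference was -3.18 points and the 12-week difference -3.97. At 4 weeks these cytosines read 59.0, 51.9 and 55.0% in control and 53.9, 50.3 and 52.1% in DMM. There the libraries overlapped (exact permutation p = 0.3). In 24 classes of cytosines the difference between weeks had exact permutation p-values of 0.705 or more, each 1.0 after adjustment. With so few libraries and this spread at 4 weeks, the test could miss a difference, so it does not show that the weeks were alike.

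**Figure D5:**
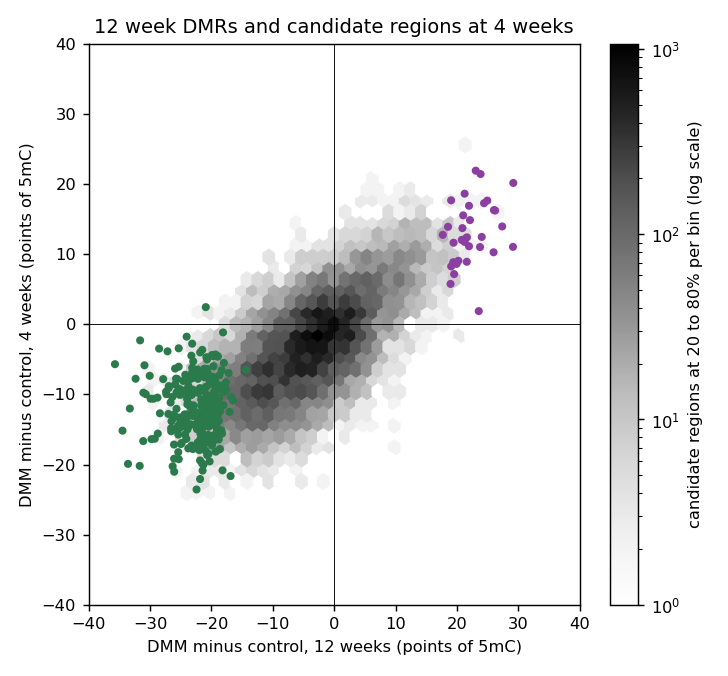
Difference of library means, DMM minus control (points of 5mC), at 12 weeks (horizontal) and 4 weeks (vertical). Green points are lower DMRs, purple points higher DMRs, and grey shading is the number of partly methylated candidate regions per bin on a log scale; 276 of 277 green points lie below 0 on the 4-week axis and 34 of 34 purple points above.

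Ordinary BS libraries of the same 12-week DNA read 5mC together with 5hmC. In them, 277 of 280 lower DMRs were lower and 35 of 35 higher DMRs higher, with median differences of -13.4 and 16.0 points. Of the partly methylated candidate regions, 63.4% were lower and 36.6% higher in BS. Free of overlap were 180 lower and 28 higher DMRs, where 18.5% and 7.34% of those candidate regions were. These are the same DNA samples that chose the DMRs. For example, Gdf5 read 46.5, 45.6 and 43.2% in control and 33.1, 33.6 and 20.9% in DMM, but Tnfrsf11b overlapped, at 53.3, 55.2 and 58.3% against 39.2, 77.0 and 60.7%. Over the 246023 partly methylated cytosines covered in both assays, the limbs differed by -2.30 points in BS and by -3.97 points in oxBS. BS minus oxBS, the estimate of 5hmC, was 4.92, 5.39 and 4.66 points in control and 7.71, 5.77 and 6.50 points in DMM, without overlap. It subtracts the oxBS values that were lower in DMM, so it is not independent of that difference. The deposited BS data of DMM replicate 1, which gave the 7.71, carry another replicate number in their name, and the other DMM libraries alone also lay above the 3 control libraries.

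In the RNA libraries, edgeR called 1 of 15093 genes (0.00663%) and none of the genes at a DMR (lowest adjusted p 0.144). An unadjusted p under 0.05 was found for 61 of 207 genes at lower DMRs and 9 of 29 at higher DMRs, beside 16.2% of all genes. DESeq2 called 21 genes at DMRs, where it called 3.66% of all genes. EdgeR called 21 without control replicate 2 (3.16% of all genes), 4 without DMM replicate 3 (0.472%) and 12 with the replicate number as a block (2.07%). By direction, 145 of 207 genes at lower DMRs (70.0%) had a log2 fold change above 0, with a median of 0.24, whereas 4 of 29 genes at higher DMRs (13.8%) did, with a median of -0.31. Over all genes it was 52.0%. Fmod read 224, 284 and 497 CPM in control and 1620, 1695 and 848 in DMM, a log2 fold change of 2.05 ± 0.37 (SE) that did not pass (edgeR adjusted p = 0.167). Col6a3 read 55.2, 81.6 and 56.3 CPM against 179, 194 and 106, and Col5a1 153, 152 and 111 against 330, 306 and 189. Timp2 read 243, 386 and 390 CPM against 1010, 793 and 429. Gdf5 (3.21 to 7.94 CPM against 9.54 to 14.8) and Fgf18 (0.63 to 1.46 against 1.81 to 3.43), 2 genes of low level, were also higher in DMM. These genes were picked for description, and others at lower DMRs overlapped between limbs. Examples are Smad3 (76.7 to 85.1 CPM against 81.6 to 112), Runx1 (59.6 to 74.7 against 69.1 to 84.8) and Sox5 (27.6 to 64.5 against 59.8 to 94.8). Some genes with lower 5mC were lower in RNA too, among them Adam19 and Traf2 (log2 fold changes of -0.55 and -0.11). Dnmt1 also had lower 5mC and read 189, 84.8 and 159 CPM in control and 76.2, 58.4 and 83.6 in DMM. Among genes with higher 5mC, Cyfip2 read 232, 108 and 189 CPM in control and 82.2, 73.8 and 98.8 in DMM, Arhgap45 401, 311 and 422 against 254, 186 and 318, and Dok2 47.1, 43.7 and 54.5 against 28.5, 33.4 and 47.9. Some genes with higher 5mC went the other way. Dlx6 was higher in DMM at a low level, 1.49 to 2.43 CPM against 2.48 to 3.17. Crispld2 (87.1, 67.4 and 97.1 CPM against 183, 134 and 94.7) and Tubb2b (1.52, 3.78 and 1.49 against 3.46, 6.18 and 1.91) were also higher on average. None of these genes passed edgeR's adjusted p of 0.05, and since RNA was taken from other mice than DNA, the directions stand side by side without a test of their link.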

How the data were processed

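Cartilage DNA was cut with MspI, pooled by 6 libraries and split into oxBS and BS parts, and the authors deposited, for each CpG cytosine and strand, its coverage and the percent of reads with C and with T, in mm10 (GRCm38) coordinates. Reads had been trimmed with CUTADAPT and aligned (the labels name Bismark), and the lowest deposited coverage was 10 reads. RNA was deposited by the authors as raw counts per RefSeq transcript, made with FLEXBAR, STAR and featureCounts (versions not given in the sources used here), 27706547 to 62737656 per library. Depth limits each percentage through counting error, and duplicate reads could not be told apart.

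Methylated reads were computed as coverage times percent. The named methylation packages of the study were not used: DMCs came from a logistic model of the reads at each cytosine, compared by likelihood ratio, and DMRs from the thresholds given in the text. Regions, promoters (at least 5 cytosines) and gene bodies (from 500 bp after the start) were tested with limma 3.58.1 on log2((M+1)/(U+1)) of summed reads M and U with a variance trend, a setting chosen after a run on simulated data. RNA was tested with edgeR 4.0.16 (quasi-likelihood, robust, TMM, 1 transcript per gene), and DESeq2 1.42.0 was an alternative. All adjusted p-values are Benjamini-Hochberg. The tests across many features were tested on simulated data, where the read-based DMC rule called unchanged cytosines once libraries of a limb varied and limma per cytosine missed part of the changed ones. The variation put into those data was a fixed setting, not fitted to these libraries.

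Gene annotation and sequence were RefSeq GRCm38.p6. Regions were named from DMRs without overlap and with at least 3 dinucleotides: the 12 lower and 8 higher with the largest difference, plus every list gene with a DMR and up to 3 genes per list with the largest difference. The members and lists were chosen with earlier results of these data known. The paper took both limbs from the same mice, but the labels do not match the libraries. Deviations of same-numbered limbs correlated at -0.0727, -0.0461 and 0.0542 over 260684 cytosines. Counting error at single cytosines weakens such correlations, so they cannot show that the limbs are unpaired. No block entered the main tests, and the replicate block was run as an alternative. The highest correlation of the 9 pairs was 0.140, between control replicate 2 and DMM replicate 1, which share the other title form. Replicates of a limb differed by more than counting error (chi-square per degree of freedom 1.15 to 1.48). As the labels give only separate samples, p-values of the tests with libraries as units measure the spread between these pooled samples. Those of the DMC rule, on which the DMRs rest, count reads and do not measure that spread. The authors' other files of the series were not used here, and 8 cytosines outside a CpG of GRCm38 were left out. Some regions that the naming rule would include are not reported here.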

Additional observations from a re-analysis of the deposited data

How the results depend on the processing

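The lower mean 5mC kept its direction under every alternative run, from -1.13 to -0.764 points without 1 library, at -1.32 points over pooled reads and at -0.927 points under the replicate block. Since every DMM library lay below every control library, leaving libraries out could not turn the direction. The value under the block equals the main difference by arithmetic. Neither is therefore a test of the direction. The DMC count was 0 with overdispersion, a fit that found no change in simulated data either and so bears on nothing here. It fell to 1158 with limma per cytosine, 1244 with coverage thinned to at most 30 reads, 1407 without control replicate 2 and DMM replicate 1, 1515 at 20 reads and 1869 at q under 0.01, and rose to 8560 at 20 points; without 1 library it ran from 1640 to 5205. The DMR count was 89 without control replicate 2 and DMM replicate 1, 72 at a mean of 25 points and 126 at 5 cytosines, and 98 to 479 without 1 library. A pseudocount of 5 called 3 regions. Gene bodies called numbered 670 on the percent scale, 374 with the title form as a term, and 0 without the variance trend, under the replicate block or without control replicate 2 and DMM replicate 1, and 0 to 5 without 1 library. RNA calls at DMRs were 12 under the replicate block, 21 with DESeq2 and 0 to 21 without 1 library. Cytosines at 80% or more turned to a higher mean over pooled reads (0.115 points) and without control replicate 3, DMM replicate 1 or DMM replicate 3 (0.0696 to 0.129 points), and ran from -0.347 to 0.129 points over all fits without 1 library. Beside these gene body and RNA calls, the replicate block gave 2800 DMCs and 315 DMRs and changed neither the region nor the promoter calls. Of 374 alternative values of the 49 named DMRs, 371 moved by less than the spread between replicates; those that moved by more included Auh at 20 reads (-26.3 points) and Dok2 without control replicate 2 and DMM replicate 1 (37.3 points). The causes were not tested. The variance trend, the 4-week libraries left out for overlap and the test between weeks were chosen after seeing the data.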

Other observations

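The X chromosome was outside the comparison. Its 2609 partly methylated cytosines read at least 10 times in all 6 oxBS libraries of 12 weeks averaged 61.5, 59.6 and 62.5% in control and 57.3, 58.8 and 58.5% in DMM, a difference of -3.01 points with every DMM library below every control library. Over all 19974 X cytosines the difference was -0.352 points, and the libraries overlapped.

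The estimate of 5hmC by feature, which also subtracts the lower oxBS values, was wider in DMM as well. BS minus oxBS in introns was 3.07, 3.19 and 2.83 points in control and 4.65, 3.53 and 3.98 points in DMM, and in promoters 0.189, 0.218 and 0.174 against 0.307, 0.225 and 0.240 points. DMM replicate 1, the deepest oxBS library, had the highest value in each class, and its BS library, whose deposited name carries another replicate number, had a median coverage of 24 reads against 73 in oxBS.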
